A study of Mus musculus with 14 samples.

Results

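The 30 genes described here are those of the T-cell receptor, its signalling chain and the T-cell subsets. They were chosen by name from a list of T-cell genes, with earlier results of these data known, and all 30 of 30 were found among the 54955 genes of the deposited table and among the 14719 genes tested. RNA had been sequenced from adipose tissue of mice of the C57BL/6 strain aged 21 weeks after birth. There were 7 libraries from KO-Dectin1 mice (KO, replicates 1 to 7) and 7 from wild type mice (WT, replicates 3 to 9). Each library is named below by its group and replicate number, as in KO7. The labels give neither the fat depot nor the design of the Dectin-1 allele, and they do not say whether the mice were littermates. Values are in TPM, the share of a transcript in its library, corrected for transcript length and scaled to a fixed total, and the question was how the T-cell transcripts of fat differ when Dectin-1, a receptor for fungal beta-glucans on myeloid cells, is targeted.

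A T cell recognises antigen through an alpha and a beta chain, which carry no signalling domain of their own and pass the signal on through the CD3 proteins and the zeta chain. The kinase Lck phosphorylates these, the kinase Zap70 docks on them, and the adaptor Lat gathers the enzymes that act next, while Cd4 or Cd8 holds the receptor to the presenting cell and Cd28 gives a second signal. Adipose tissue holds resident T cells, among them regulatory T cells that need Foxp3, and some depots also contain lymph nodes, where naive T cells marked by Tcf7, Lef1 and Il7r gather.

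The 30 genes differed far more among the libraries of a group than between the group medians. The summed TPM of the 30 genes was 1980.2, 1127, 1939, 2981, 2809, 2031 and 101 in KO1 to KO7, against 2623, 39.9, 2871, 823, 76.1, 1549 and 1509 in WT3 to WT9. KO7, WT4 and WT7 held very little T-cell RNA, and their 3 values were the lowest of the 14 libraries for each of the 30 genes. WT6 came next and was the fourth lowest for 27 of 30 genes, and KO2 was the lowest of the remaining KO libraries for all 30. For each gene, the median of the other 11 libraries was between 3.99 and 1527 times the highest of these 3, with the smallest ratio for Cd247 and the largest for Cd27. Of the 30 genes, 11 were under 1 TPM in KO7, against 21 in WT4 and 18 in WT7.

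B-cell and lymph node stroma transcripts were lowest in the same 3 libraries as the T-cell genes. A fit with a B-cell score as covariate is given below, and the part of the stroma transcripts was not tested. The summed TPM of 12 B-cell genes was 10.8 in KO7, against 3.50 in WT4 and 7.73 in WT7, and lay between 636 and 2527 in the other 6 KO libraries and between 1206 and 1897 in the other 5 WT libraries. WT6, the fourth lowest in summed T-cell TPM, was not low in this B-cell sum, at 1444 against 1259 in WT8 and 1206 in WT9. Cd79a, the signalling subunit of the B-cell receptor, ranged from 1.52 to 720 TPM with a median of 446 in KO libraries and from 0.62 to 563 TPM with a median of 349 in WT libraries. Ccl21a, a chemokine made by lymph node stroma, ranged from 0.60 to 1011 TPM in KO libraries and from 0.75 to 944 TPM in WT libraries. The stroma chemokine Ccl19 ranged from 0.52 to 292 TPM in KO libraries and from 0.37 to 475 TPM in WT libraries. The lowest values of both chemokines were in the same 3 libraries, and the summed TPM of the 10 lymph node stroma genes was 126 in KO7, 123 in WT4 and 171 in WT7, against 718 to 1678 in the other KO libraries and 1036 to 1768 in the other WT libraries. In bulk tissue, fewer T cells and less RNA per T cell cannot be told apart.

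**Figure D1:**
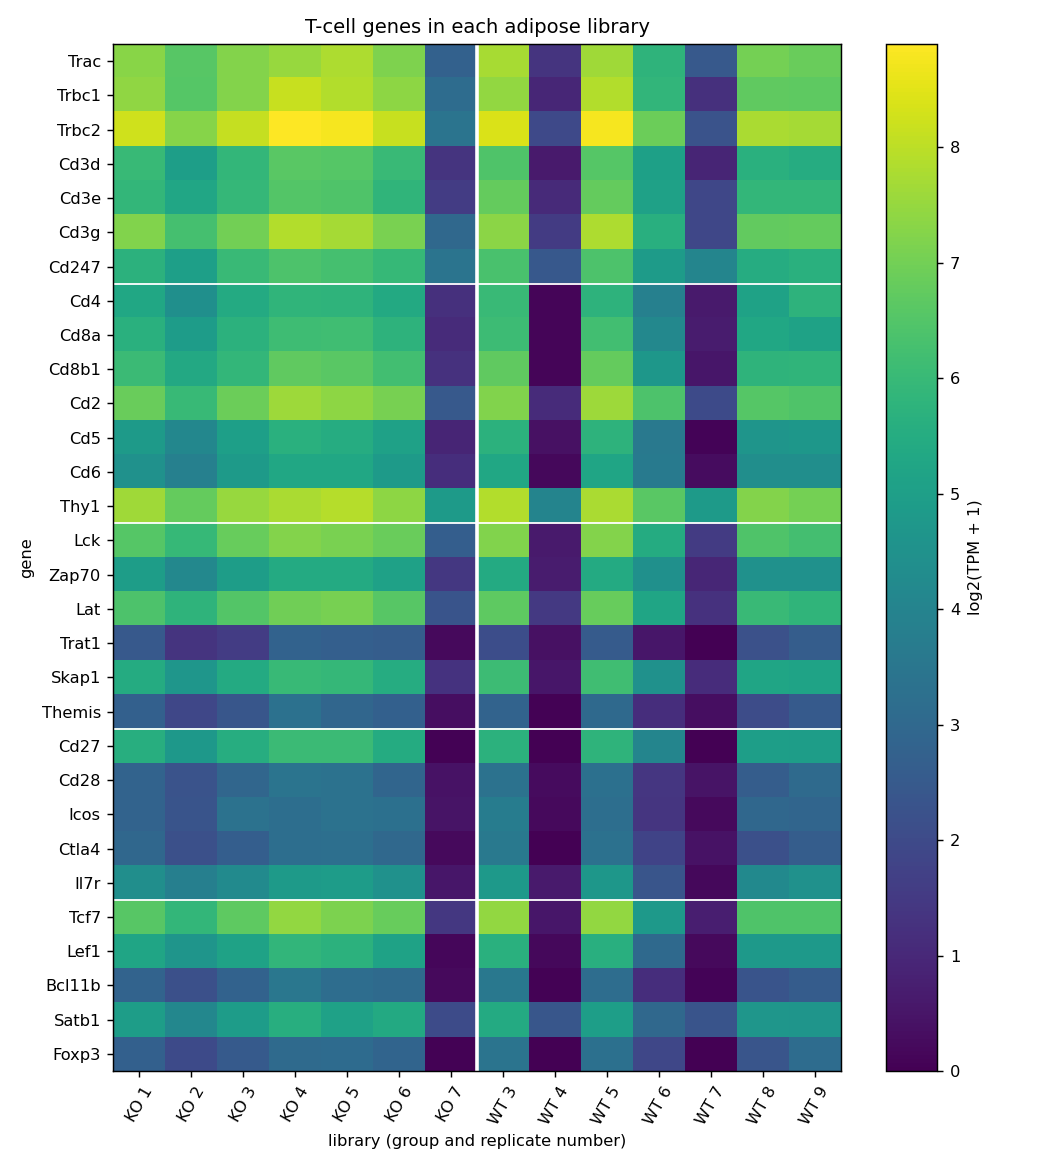
Level of the 30 T-cell genes in each library as log2(TPM + 1), with the 7 KO libraries left of the 7 WT libraries and white lines between functional groups (receptor complex, coreceptors and adhesion, signalling, costimulation and cytokine receptors, transcription factors). The dark columns KO7, WT4 and WT7 hold the 3 lowest values of every gene.

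**Figure D2:**
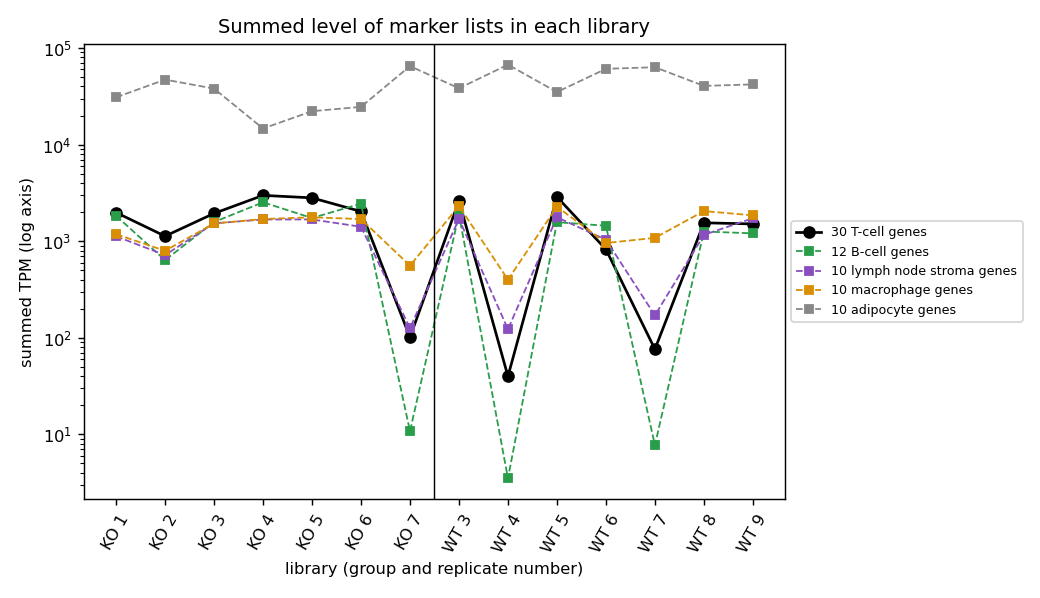
Summed TPM (log axis) of the 30 T-cell genes and of lists of B-cell, lymph node stroma, macrophage and adipocyte genes in each library, KO left of WT. The T-cell, B-cell and lymph node stroma lists are lowest in KO7, WT4 and WT7, where the adipocyte sum has its 3 highest values.

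No T-cell gene passed the test between KO and WT. The comparison used limma on log2(TPM + 1), with Benjamini-Hochberg adjustment over all 14719 tested genes, and calls were made at an adjusted p under 0.05. By this rule 0 of 30 T-cell genes were called higher in KO, where 0.0% of all genes tested were, and 0 of 30 were called lower, where 0.0204% of all genes were. At an unadjusted p under 0.05 the count was again 0 of 30, against 11.4% of all genes tested in either direction, and the values of the KO and WT libraries overlapped for all 30 T-cell genes, where they did not overlap for 0.319% of all genes tested. The fitted log2 fold change was above 0 for 30 of 30 genes, with a median of 0.88, against a median of 0.04 over all genes tested, of which 54.6% were above 0. The standard errors (SE) of the 30 genes ran between 0.52 and 1.28, and each of the 30 95% intervals held 0 (limma adjusted p between 0.616 and 0.838).

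The size of the fold changes moved with the libraries low in T-cell RNA, and the common sign was lost when 4 of them were left out. Without WT4 the median log2 fold change of the 30 genes was 0.37, without WT7 it was 0.39, and without KO7 it was 1.44. Without KO7, WT4 and WT7 it was 0.23 with 28 of 30 genes above 0, against 48.4% of all genes tested, and SE fell to between 0.25 and 0.43. Without WT6 as well, a choice made after seeing the data, the median was -0.04 with 13 of 30 genes above 0. All genes tested had a median of -0.11 in that fit, with 32.1% above 0. In those 10 libraries the widest limits of the 95% intervals were -0.96 and 0.95, against -1.60 and 4.11 in all 14 libraries. The 4 libraries left out were the lowest in the summed TPM of these genes, which narrows the intervals. A change beyond these limits is therefore not excluded. A further fit of all 14 libraries took a B-cell score, the mean log2(TPM + 1) of the 12 B-cell genes, as covariate. There the median of the 30 genes was 0.08 with 25 of 30 above 0, against 49.0% of all genes tested. The cause of this shift was not tested. Limma called 0 of the 30 genes in each of these fits.

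**Figure D3:**
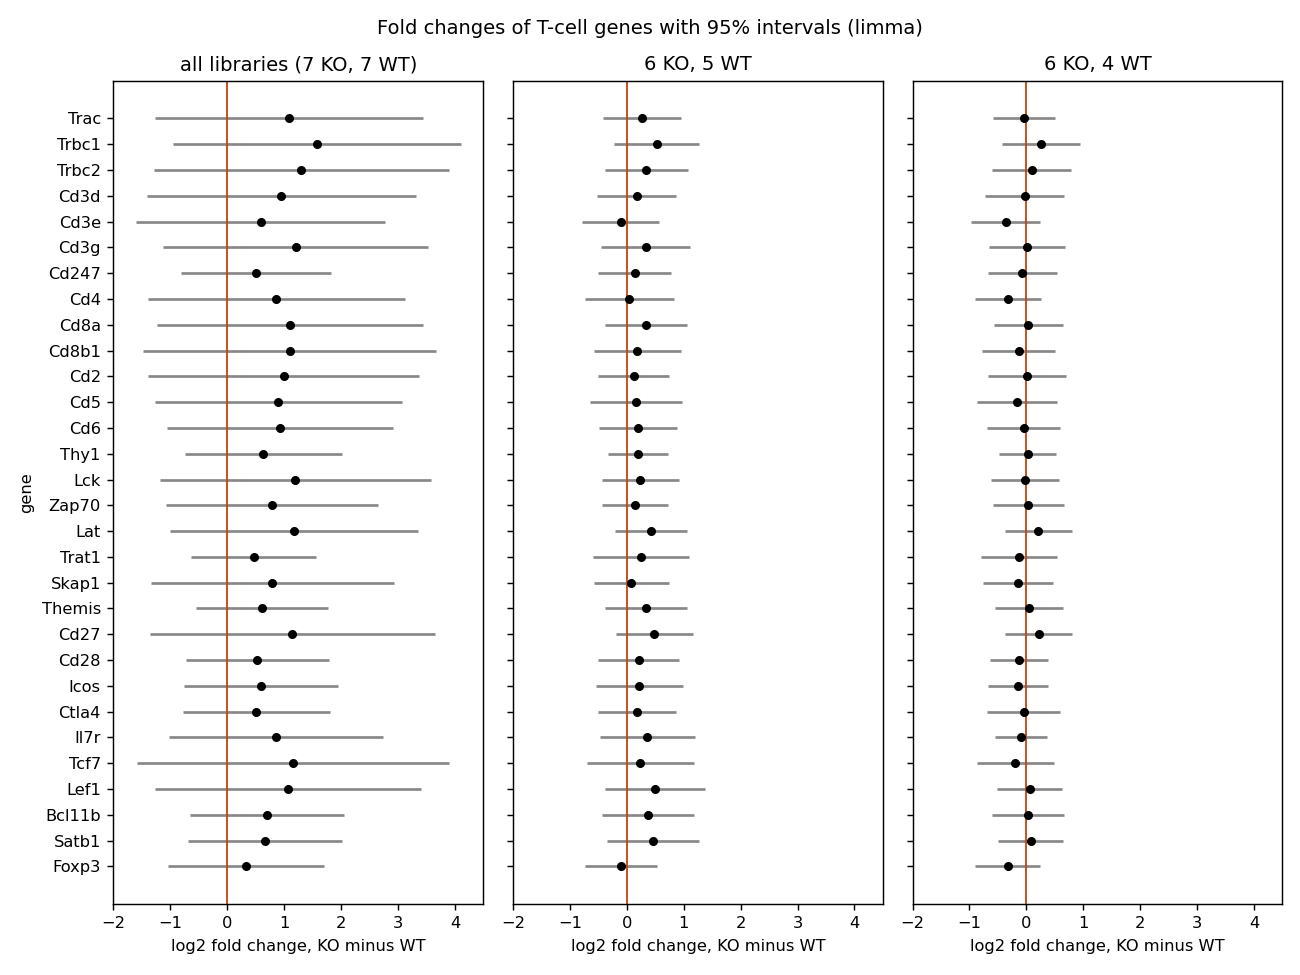
Log2 fold change (KO minus WT, on log2(TPM + 1)) of each T-cell gene with its 95% interval from limma, in all 14 libraries, in the 6 KO and 5 WT libraries without KO7, WT4 and WT7, and in the 6 KO and 4 WT libraries without WT6 as well. The points lie above 0 for 30, 28 and 13 of 30 genes, and all intervals of the first fit hold 0.

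The 7 genes of the receptor complex held the largest summed TPM of the functional groups in 12 of the 14 libraries, and in WT4 and WT7 the coreceptor and adhesion genes held more. Their sum ranged from 43.3 to 1449 with a median of 914 in KO libraries and from 13.3 to 1374 with a median of 688 in WT libraries. The beta chain can be built with either of a pair of neighbouring constant region genes, Trbc1 and Trbc2. Trbc2 had the highest level, from 9.64 to 475 TPM with a median of 285 in KO libraries and from 2.89 to 438 TPM with a median of 206 in WT libraries. Trbc1 ranged from 7.74 to 286 TPM with a median of 166 in KO libraries and from 0.95 to 230 TPM with a median of 103 in WT libraries. The groups overlapped in both, with KO4 highest among the 14 libraries and WT4 lowest. The log2 fold change was 1.30 ± 1.21 for Trbc2 and 1.57 ± 1.18 for Trbc1 (SE, limma adjusted p = 0.677 and 0.616), the largest of the 30 for Trbc1.

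The balance between Trbc1 and Trbc2, in contrast to their levels, separated the groups. Trbc1 stood at 0.558, 0.599, 0.553, 0.601, 0.537, 0.581 and 0.803 times Trbc2 in KO1 to KO7, against 0.520, 0.329, 0.526, 0.479, 0.341, 0.487 and 0.5002 times Trbc2 in WT3 to WT9. Each of the 7 KO libraries lay above each of the 7 WT libraries, with KO5 and WT5 closest to each other. The mean log2 ratio of Trbc1 to Trbc2 was -0.74 ± 0.20 in KO libraries and -1.14 ± 0.25 in WT libraries (SD, 7 per group), a difference of 0.40 (2-sided exact permutation p = 0.000583, the smallest that 3432 splits can give; adjusted over 8 ratios 0.00466). The 8 ratios, like the genes, were chosen with earlier results of these data known. The same libraries with little T-cell RNA were the extremes, KO7 at the top and WT4 and WT7 at the bottom. Without them the difference was 0.19 and the groups still did not overlap (n = 6 and 5, exact permutation p = 0.00433, adjusted p = 0.0346). Without WT6 as well the difference was 0.17 (n = 6 and 4, exact permutation p = 0.00952, adjusted p = 0.0762), past the threshold no longer. The groups did not overlap there either, and the smallest p that its 210 splits can give is 0.00476.

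The share of Trbc1 in the sum of both genes was 37.5% ± 3.2 in KO libraries and 31.0% ± 4.1 in WT libraries (SD, 7 per group). The sum itself ranged from 17.4 to 761 TPM with a median of 451 in KO libraries and from 3.84 to 668 TPM with a median of 310 in WT libraries. In WT the share was lowest in the libraries with the lowest sums and highest in WT5, which had the highest. KO5 and WT5 had nearly equal sums, 667 TPM in KO5 and 668 TPM in WT5, and the closest shares, 34.9% in KO5 and 34.5% in WT5.

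**Figure D4:**
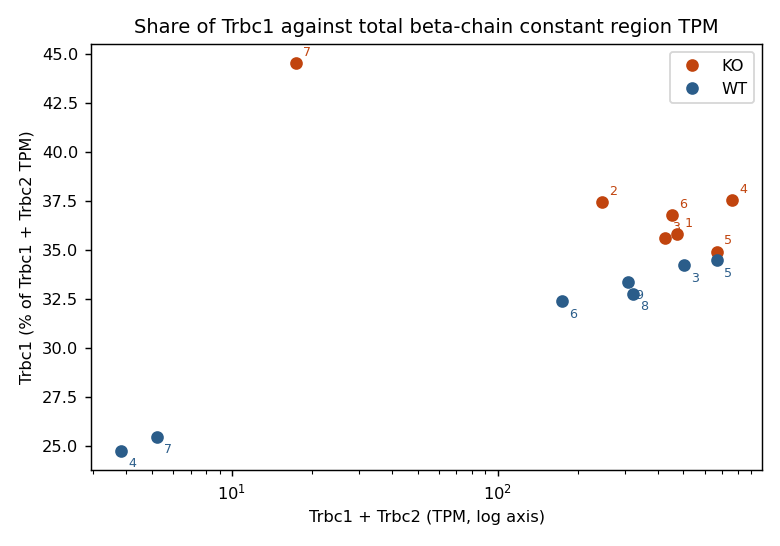
Share of Trbc1 in the sum of Trbc1 and Trbc2 TPM (%) against that sum (TPM, log axis), 1 point per library with its replicate number, KO and WT in 2 colours. All KO points lie above all WT points, from 34.9% to 44.5% in KO and from 24.7% to 34.5% in WT.

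Both transcripts are shown because their likeness bears on this ratio. In GENCODE M21 the Trbc1 transcript has 737 bases and the Trbc2 transcript 692, the same lengths as in the deposited table. Their first 259 bases are identical, with a single difference among the first 382, and over 677 aligned bases they are 86.3% identical. Of all 50-base windows of Trbc1, 41.1% occur unchanged in Trbc2, and of those of Trbc2, 44.0% occur in Trbc1. How reads that fit both were counted is not given in the sources used here, so the split between the genes is uncertain. The coding stretch from base 241 to base 420 of each transcript (chromosome 6), where the sequences begin to part, is given with the 8 differing bases in capitals.
Trbc1: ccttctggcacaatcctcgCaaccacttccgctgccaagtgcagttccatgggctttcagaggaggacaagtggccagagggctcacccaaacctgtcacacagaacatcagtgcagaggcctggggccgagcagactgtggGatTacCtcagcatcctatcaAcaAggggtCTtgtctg
Trbc2: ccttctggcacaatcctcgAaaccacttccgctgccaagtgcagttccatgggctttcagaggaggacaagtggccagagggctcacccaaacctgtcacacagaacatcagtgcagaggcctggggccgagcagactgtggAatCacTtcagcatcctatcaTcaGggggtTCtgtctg

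Among the 14718 other tested genes, the ratio to Trbc2 did not overlap between the 7 KO and 7 WT libraries for 0.0272%, that is for 4 genes: Trbc1 and Cd3e of the 30, and Dnase1l3 and Gm12551, which are named because of their values. Relative to Trbc2, Trbc1 was higher in KO than in WT, and the other 3 were lower. Cd3e, the epsilon chain of CD3, stood at 0.189 to 0.245 times Trbc2 with a median of 0.200 in KO libraries and at 0.252 to 0.690 times Trbc2 with a median of 0.283 in WT libraries. This ratio was found by looking through the data, so no test is given for it.

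Cd3e was the sole gene of the 30 whose median was not higher in KO. It ranged from 1.99 to 91.4 TPM with a median of 57.6 in KO libraries and from 1.07 to 110 TPM with a median of 58.2 in WT libraries. Its log2 fold change was 0.58 ± 1.02 (SE, limma adjusted p = 0.814), and it became -0.04 without WT4 and -0.11 without KO7, WT4 and WT7. Each of the other 29 genes was divided by Cd3e in the 11 libraries with more T-cell RNA, as a description only, since Cd3e was taken for its low value in KO and most ratios to it are then higher in KO. For 9 of 29 the 2 groups did not overlap in this ratio, where they did not for 0.829% of all genes tested. The 2 shares are not alike, because the 30 genes vary together across the libraries, which narrows their ratios to Cd3e. No enrichment is read from them. These 9, all higher in KO, were Trbc1, Trbc2, Cd3g, Cd8a, Cd6, Lck, Lat, Cd27 and Lef1. The 29 ratios share 1 denominator and are therefore not independent, and with the other genes as denominator in turn the number of ratios that did not overlap lay between 0 and 6. Trbc1 as denominator gave 6, all lower in KO, and Skap1 gave 5, all higher in KO.

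Among these 9, Cd27, Lat and Cd3g show how wide the gaps were. Cd27, a costimulatory receptor of the tumour necrosis factor receptor family, stood at 0.684 to 0.820 times Cd3e in the 6 KO libraries and at 0.469 to 0.522 times Cd3e in the 5 WT libraries. Lat stood at 1.36 to 1.69 times Cd3e in the 6 KO libraries and at 0.917 to 1.12 times Cd3e in the 5 WT libraries. Cd3g, the gamma chain of CD3, stood at 2.02 to 2.55 times Cd3e in the 6 KO libraries and at 1.45 to 2.01 times Cd3e in the 5 WT libraries. For Cd3g the highest WT library, WT5, nearly touched the lowest KO library, KO2, whereas for Cd27 and Lat a clear gap lay between the groups. In the 3 libraries with little T-cell RNA, Cd27 was 0.03 TPM in KO7, 0.02 TPM in WT4 and 0.00 TPM in WT7, so its ratio to Cd3e could not be read there. Lat stood at 1.995 times Cd3e in KO7, 1.68 times in WT4 and 0.524 times in WT7, and Cd3g at 3.50 times in KO7, 1.79 times in WT4 and 1.02 times in WT7. With these libraries included the groups overlapped for Lat, since WT4 lay within the KO range. They overlapped as well for Cd8a and Lef1, where KO7 stood at 0.563 and 0.0603 times Cd3e, and for Cd27 at its listed values. An antisense gene model, Gm48719, overlaps an exon of Cd3e. It was at 2.15 TPM or less in KO libraries and at 2.53 TPM or less in WT libraries, and at 0 in 3 KO and 4 WT libraries. Whether the counting used strand is not given in the sources used here.

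The remaining genes of the complex followed the same libraries. Trac, the constant region of the alpha chain, ranged from 5.72 to 224 TPM with a median of 149 in KO libraries and from 1.52 to 211 TPM with a median of 115 in WT libraries (log2 fold change 1.08 ± 1.10 SE, limma adjusted p = 0.697). Cd3g ranged from 6.97 to 233 TPM with a median of 136 in KO libraries and from 1.92 to 222 TPM with a median of 107 in WT libraries (1.20 ± 1.08 SE, limma adjusted p = 0.668). Cd3d, the delta chain, ranged from 1.51 to 97.1 TPM with a median of 62.9 in KO libraries and from 0.55 to 93.2 TPM with a median of 44.8 in WT libraries (0.95 ± 1.10 SE, limma adjusted p = 0.725). All 3 overlapped between the groups over nearly their whole range. Cd247, the zeta chain, kept a visible level in the libraries with little T-cell RNA, at 9.75 TPM in KO7, 4.44 TPM in WT4 and 15.5 TPM in WT7. In the remaining libraries it ranged from 31.2 to 83.8 TPM in KO and from 28.7 to 84.5 TPM in WT. Cd247 overlaps by exon with the opposite strand gene Pou2f1 and the same strand gene model Gm16565, and zeta is also used by natural killer cells. The part of these in the Cd247 level was not tested.

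The CD3 genes Cd3g and Cd3d start 1355 bases apart on chromosome 9 on opposite strands, with Cd3e beside them. Their upstream sequences are shown since the 3 chains join the same complex, and a link of these sequences to the ratios was not tested. Each line gives the 250 bases before the start of the gene, from RefSeq on GRCm38.p6, written 5′ to 3′ on the strand of the gene, with matches to the 6 motifs listed next in capitals.
Cd3g (chr9:44980432-44980681, minus strand): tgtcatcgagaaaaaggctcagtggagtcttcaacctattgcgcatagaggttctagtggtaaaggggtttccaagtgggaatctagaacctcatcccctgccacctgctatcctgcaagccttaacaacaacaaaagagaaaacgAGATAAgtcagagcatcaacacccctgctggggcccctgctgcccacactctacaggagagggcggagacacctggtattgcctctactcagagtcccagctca
Cd3d (chr9:44981536-44981785, plus strand): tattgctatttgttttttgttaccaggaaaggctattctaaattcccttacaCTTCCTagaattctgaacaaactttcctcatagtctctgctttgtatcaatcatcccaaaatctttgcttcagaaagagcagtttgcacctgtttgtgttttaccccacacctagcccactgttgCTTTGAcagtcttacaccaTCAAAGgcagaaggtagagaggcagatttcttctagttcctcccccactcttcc
Cd3e (chr9:45009612-45009861, minus strand): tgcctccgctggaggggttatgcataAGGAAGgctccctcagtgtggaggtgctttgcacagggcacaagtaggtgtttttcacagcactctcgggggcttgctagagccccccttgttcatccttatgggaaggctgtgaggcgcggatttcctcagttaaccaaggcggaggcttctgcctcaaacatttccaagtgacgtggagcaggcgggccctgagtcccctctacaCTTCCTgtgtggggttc

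The motifs searched on both strands were AGGAAG for the ETS family, CTTTGA for TCF and LEF, TGTGGT for RUNX, CAGCTG for the E-box, AGATAA for GATA factors and TATAAA for the core promoter box, and hits of different motifs were counted apart even where they overlapped. RefSeq promoters were matched for 19 of the 30 genes, with 32 start sites. The ETS letters were found in 14 of these 32 windows, or 43.8%, against 29.5% of all 32851 windows in the table, and the TCF and LEF letters in 15.6% against 13.8%. RUNX letters were found in 9.38% against 14.045%, E-box letters in 12.5% against 13.0%, GATA letters in 6.25% against 9.99% and the core promoter box letters in 12.5% against 12.4%. Cd3d held 1 ETS and 2 TCF or LEF matches, Cd3e held 2 ETS matches, and Cd3g held 1 GATA match. A match describes letters only and does not show a bound site.

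Of the 7 coreceptor and adhesion genes 0 passed the test. Cd4, the coreceptor of helper and regulatory T cells, ranged from 1.34 to 55.4 TPM with a median of 41.3 in KO libraries and from 0.09 to 64.8 TPM with a median of 34.2 in WT libraries (log2 fold change 0.86 ± 1.05 SE, limma adjusted p = 0.735). Cd8a, the alpha chain of the coreceptor of cytotoxic T cells, ranged from 1.12 to 70.3 TPM with a median of 51.3 in KO libraries and from 0.09 to 72.7 TPM with a median of 33.7 in WT libraries (1.10 ± 1.09 SE, limma adjusted p = 0.691). Cd8b1, its beta chain, had medians of 65.6 TPM in KO and 53.8 TPM in WT (1.09 ± 1.20 SE, limma adjusted p = 0.713). For Cd4 the highest libraries were WT3, KO4 and KO5, and for both Cd8 chains the highest was WT5, so neither group held the top alone.

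The ratio of Cd8a to Cd4 was 1.21 to 1.45 in the KO libraries other than KO7, which was at 0.836, against 0.633 to 1.36 in the WT libraries. The mean log2 ratio was 0.28 ± 0.24 in KO libraries and 0.06 ± 0.35 in WT libraries (SD, 7 per group; exact permutation p = 0.207, adjusted over 8 ratios 0.337). WT9 stood alone at the low end with 53.3 TPM of Cd4 and 33.7 TPM of Cd8a. The mean log2 ratio of Cd8a to Cd8b1 was -0.41 ± 0.14 in KO libraries and -0.37 ± 0.39 in WT libraries (SD, 7 per group; exact permutation p = 0.785, adjusted p = 0.785). Both Cd8 genes were under 1 TPM in WT4 and WT7, and the sign of that difference turned without these libraries.

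Thy1, a glycoprotein on T cells that fibroblasts and nerve cells also make, was the adhesion gene with the highest level, from 27.8 to 238 TPM with a median of 182 in KO libraries and from 15.2 to 234 TPM with a median of 131 in WT libraries (log2 fold change 0.64 ± 0.64 SE, limma adjusted p = 0.695). Its level in KO7, WT4 and WT7 was a larger share of that in the other libraries than for most of the 30 genes. Cd2, an adhesion receptor, ranged from 4.58 to 190.2 TPM in KO libraries and from 1.14 to 190.6 TPM in WT libraries. Cd5 and Cd6, which dampen receptor signals, had medians of 31.7 and 27.7 TPM in KO libraries and 23.9 and 20.1 TPM in WT libraries. The log2 fold changes of these 3 lay between 0.90 and 0.99 (limma adjusted p between 0.695 and 0.72).

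Among the 6 signalling genes 0 passed the test as well. Lck ranged from 5.27 to 150.3 TPM with a median of 112 in KO libraries and from 0.56 to 151 TPM with a median of 74.9 in WT libraries (log2 fold change 1.20 ± 1.11 SE, limma adjusted p = 0.677). Zap70 ranged from 1.70 to 42.2 TPM with a median of 30.2 in KO libraries and from 0.61 to 42.7 TPM with a median of 21.4 in WT libraries (0.78 ± 0.87 SE, limma adjusted p = 0.715). Lat ranged from 3.97 to 132 TPM with a median of 91.3 in KO libraries and from 1.41 to 113 TPM with a median of 55.6 in WT libraries (1.18 ± 1.02 SE, limma adjusted p = 0.656). The highest library was WT5 for Lck, WT3 for Zap70 and KO5 for Lat. Skap1, an adaptor for integrin activation, had medians of 43.6 TPM in KO and 34.8 TPM in WT (0.79 ± 1.00 SE, limma adjusted p = 0.742). The low genes were Themis, a regulator of receptor signals in thymocytes, with medians of 5.6 TPM in KO and 3.15 TPM in WT, and Trat1, an adaptor bound to the receptor, with medians of 4.53 TPM in KO and 3.34 TPM in WT.

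Of the 5 costimulatory and cytokine receptors 0 passed the test. Cd27 ranged from 0.03 to 65.7 TPM with a median of 45.8 in KO libraries and from 0.00 to 54.6 TPM with a median of 29.9 in WT libraries (log2 fold change 1.14 ± 1.17 SE, limma adjusted p = 0.698). Il7r, the receptor for the survival cytokine interleukin-7, ranged from 0.47 to 29.3 TPM with a median of 20.0 in KO libraries and from 0.15 to 26.8 TPM with a median of 17.6 in WT libraries (0.85 ± 0.88 SE, limma adjusted p = 0.702). Both overlapped between the groups. Cd28, its relative Icos and the inhibitory receptor Ctla4 stayed at 12.4 TPM or less in all libraries, with log2 fold changes between 0.51 and 0.59 (limma adjusted p between 0.707 and 0.728). Ctla4 was listed at 0 in WT4, which makes its fold changes uncertain, and its log2 ratio to Cd28 was -0.17 ± 0.27 in KO libraries and -0.27 ± 0.70 in WT libraries (SD, 7 per group; exact permutation p = 0.765, adjusted over 8 ratios 0.785). The log2 ratio of Il7r to Cd3e was -1.61 ± 0.17 in KO libraries and -2.09 ± 0.90 in WT libraries (exact permutation p = 0.21, adjusted p = 0.337).

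Of the 5 transcription factors 0 passed the test. Tcf7, the factor of naive and memory T cells, ranged from 1.71 to 173 TPM with a median of 101 in KO libraries and from 0.45 to 176 TPM with a median of 85.6 in WT libraries (log2 fold change 1.16 ± 1.28 SE, limma adjusted p = 0.714). Lef1, its partner, ranged from 0.12 to 56.2 TPM with a median of 34.1 in KO libraries and from 0.15 to 49.2 TPM with a median of 26.5 in WT libraries (1.07 ± 1.09 SE, limma adjusted p = 0.698). Both were low in WT6, Tcf7 at 27.1 TPM and Lef1 at 7.20 TPM, apart from the other WT libraries that held T-cell RNA. The log2 ratio of Tcf7 to Cd3e was 0.65 ± 0.40 in KO libraries and -0.11 ± 1.02 in WT libraries (SD, 7 per group; exact permutation p = 0.0717, adjusted over 8 ratios 0.196). Without KO7, WT4 and WT7 that difference was 0.35 and passed (n = 6 and 5, exact permutation test, adjusted p = 0.0433), with KO2 at 1.55 below WT3 and WT5 at 1.58 and 1.59, so the groups overlapped. Without WT6 as well it was 0.17 and did not pass (n = 6 and 4, exact permutation test, adjusted p = 0.124). In the 6 KO and 5 WT libraries, 28 of 29 ratios to Cd3e had a higher median in KO. The direction was therefore not particular to Tcf7. With Tcf7 as denominator, 25 of 29 ratios had a higher median in KO. Whether Tcf7 itself shifted was not tested.

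Satb1, a chromatin organiser also made outside T cells, was 3.09 TPM in KO7, 4.18 TPM in WT4 and 3.97 TPM in WT7, and ranged from 16.5 to 46.5 TPM in the other KO libraries and from 7.07 to 42.4 TPM in the other WT libraries (log2 fold change 0.67 ± 0.63 SE, limma adjusted p = 0.681). Bcl11b, which holds T cells to their lineage, had medians of 6.04 TPM in KO and 3.92 TPM in WT (0.70 ± 0.63 SE, limma adjusted p = 0.666). Foxp3 ranged from 0.03 to 7.68 TPM with a median of 5.6 in KO libraries and from 0.00 to 9.79 TPM with a median of 4.12 in WT libraries, and it had the smallest log2 fold change of the 30, 0.32 ± 0.64 (SE, limma adjusted p = 0.838). The highest Foxp3 libraries were WT3 and WT5, and it was listed at 0 in WT4 and WT7. The log2 ratio of Foxp3 to Cd4 was -2.92 ± 0.28 in KO libraries and -2.44 ± 0.70 in WT libraries (SD, 7 per group; exact permutation p = 0.0734, adjusted over 8 ratios 0.196). In the libraries with more T-cell RNA Foxp3 stood at 0.113 to 0.151 times Cd4 in KO and at 0.121 to 0.202 times Cd4 in WT, and the exons of Foxp3 overlap those of the gene models Ccdc22, Flicr, Gm36995 and Ppp1r3f.

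**Figure D5:**
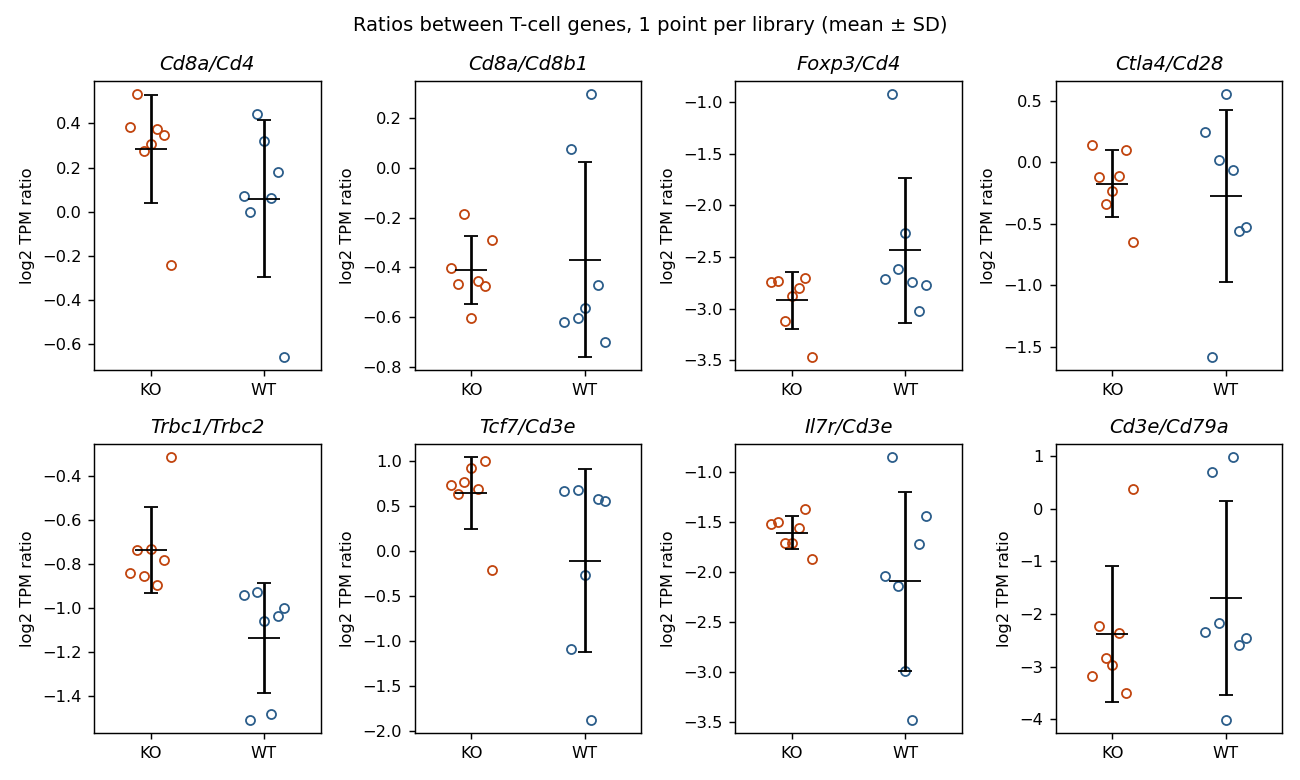
The 8 ratios between genes as log2 TPM ratios (0.1 added to both genes), 1 point per library with the mean and SD of 7 libraries, KO left of WT. The groups do not overlap for Trbc1 to Trbc2, where the mean is -0.74 in KO and -1.14 in WT, and overlap in the other 7 ratios.

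The ratio of T-cell to B-cell transcripts did not separate the groups. The log2 ratio of Cd3e to Cd79a was -2.39 ± 1.29 in KO libraries and -1.70 ± 1.84 in WT libraries (SD, 7 per group; exact permutation p = 0.408, adjusted over 8 ratios 0.544). Cd3e was below Cd79a in 11 of the 14 libraries, and above it in KO7, WT4 and WT7. Without these libraries the difference was -0.13 (n = 6 and 5, exact permutation test, adjusted p = 0.836). In all, 1 of the 8 ratios, that of Trbc1 to Trbc2, passed in the 14 libraries.

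Most other T-cell genes outside the 30 had the same sign in the fit of all 14 libraries, and 0 were called. Of all genes tested 54.6% were above 0 in that fit. Counts without the libraries low in T-cell RNA are not given for these lists. Of 26 further genes of receptor signalling, 26 had a log2 fold change above 0 with a median of 0.73, and 0 of 26 were called. Plcg1, the phospholipase downstream of Lat, was 35.7 ± 4.9 TPM in KO libraries and 31.1 ± 5.9 TPM in WT libraries (SD, 7 per group; log2 fold change 0.21 ± 0.13 SE, limma adjusted p = 0.569). Malt1, Cd226 and Sh2d1a had log2 fold changes of 0.71, 0.86 and 0.89 (limma adjusted p between 0.588 and 0.604). Of 13 tested genes of cytotoxic and effector T cells all 13 were above 0 with a median of 0.34 and 0 were called, and Tbx21, Klrd1, Nkg7 and Ctsw lay between 0.37 and 0.71 (limma adjusted p between 0.67 and 0.736). Of 8 tested genes of natural killer and innate lymphoid cells all 8 were above 0 with a median of 0.42 and 0 were called, with Gata3, Klre1, Klrk1 and Klrb1c between 0.28 and 0.61. This list is not wholly outside the 30, since it also holds Il7r, and it shares Gata3 with the list of regulatory and helper subsets. For gamma delta T cells, 4 of 10 listed genes were tested and 0 called, Trgc1, Trdc, Trgc2 and Sox13 with log2 fold changes of 0.47, 0.23, 0.20 and 0.03.

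Among the naive and recirculating genes 1 ran the other way. Of 8 naive and recirculating genes 7 were above 0 with a median of 0.54, and 0 were called. The exception was Igfbp4, an insulin-like growth factor binding protein made by naive T cells and by stromal cells, at 244 ± 81 TPM in KO libraries and 402 ± 76 TPM in WT libraries (SD, 7 per group; log2 fold change -0.76 ± 0.21 SE, limma adjusted p = 0.222). S1pr1, the receptor that lets T cells leave lymph nodes, was 63.0 ± 19.6 TPM in KO and 46.0 ± 22.8 TPM in WT (0.57 ± 0.36 SE, limma adjusted p = 0.555), and Rapgef4 and Dapl1 had log2 fold changes of 0.52 and 1.20 (limma adjusted p = 0.675 and 0.693). Of 9 tested genes of regulatory and helper subsets 7 were above 0 with a median of 0.42, and 0 were called. At an unadjusted p under 0.05 in limma, which 11.4% of all genes tested passed, Igfbp4 was the 1 gene of 8 in the naive list. The lists of receptor signalling, cytotoxic, natural killer, gamma delta and thymocyte genes held 0. Unlike the 30 genes, Igfbp4 stayed at 145 TPM or more in KO libraries and at 280.2 TPM or more in WT libraries. Gata3, Tnfrsf18 and Pdcd1 had log2 fold changes of 0.50, 0.73 and 0.42 (limma adjusted p between 0.5682 and 0.714).

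The thymocyte list was mixed. Rag1, Rag2 and Ptcra, which build and test the receptor in the thymus and are named outside the rule for their low values, were at 0.25 TPM or less in KO libraries and at 0.34 TPM or less in WT libraries. Dntt, also outside the rule, adds bases to receptor genes in the thymus and reached 1.88 TPM in KO libraries and 1.61 TPM in WT libraries. Of 8 thymocyte genes 3 were tested and 0 called, and Cd1d1, Mns1 and Tox had log2 fold changes of -0.49, 0.24 and 0.30 (limma adjusted p = 0.514, 0.741 and 0.809).

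Lists of other cells were read in the same fit. The 12 B-cell genes were all above 0 with a median log2 fold change of 1.13, and Cd79a and Cd79b had values of 1.19 ± 1.68 and 1.33 ± 1.48 (SE, limma adjusted p = 0.767 and 0.716). Of 10 lymph node stroma genes 6 were above 0 with a median of 0.03, with Ccl21a at 1.23 ± 1.88 and Ccl19 at 0.52 ± 1.57 (SE, limma adjusted p = 0.784 and 0.896). The median was -0.50 for 10 macrophage genes, -0.55 for 10 adipocyte genes, -1.70 for 9 tested skeletal muscle genes and -0.47 for 8 stromal progenitor genes, and 0 genes of these lists were called. At an unadjusted p under 0.05 in limma there were 2 of 10 lymph node stroma and 4 of 10 macrophage genes. There were 4 of 10 adipocyte, 1 of 8 progenitor and 0 B-cell and muscle genes, against 11.4% of all genes tested. Adipoq, the fat cell hormone adiponectin, was 1652 ± 839 TPM in KO libraries and 2967 ± 837 TPM in WT libraries (SD, 7 per group; -0.96 ± 0.31 SE, limma adjusted p = 0.282), and Plin1, the coat of the lipid droplet, had -0.55 ± 0.34. The macrophage genes Adgre1 and Csf1r had -0.18 ± 0.29 and -0.36 ± 0.36, the muscle genes Mylpf and Acta1 had -1.65 ± 1.49 and -2.39 ± 1.43, and the progenitor genes Pdgfra and Ly6a had -0.24 ± 0.31 and -0.55 ± 0.21 (SE). The summed TPM of the adipocyte list was highest in KO7, WT4 and WT7, the libraries lowest in T-cell RNA, at 64939 in KO7, 67219 in WT4 and 63244 in WT7, against 14671 to 47085 in the other KO libraries and 34993 to 60879 in the other WT libraries. TPM is a share of a fixed total, and the part of the adipocyte transcripts in the T-cell values was not tested.

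Clec7a, which encodes Dectin-1, was 6.94 ± 2.61 TPM in KO libraries and 10.99 ± 5.99 TPM in WT libraries (SD, 7 per group; log2 fold change -0.48 ± 0.33 SE, limma adjusted p = 0.594). Its values overlapped, from 4.02 to 10.5 TPM in KO libraries and from 4.10 to 18.9 TPM in WT libraries, and a value for the whole gene does not show which exons were read. The groups are therefore those of the labels.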

How the data were processed

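Per the labels' protocols, frozen adipose tissue was taken up in Trizol and TruSeq libraries were made from total RNA. The authors deposited 1 table of TPM values with 56552 rows, a column per library, the group means and a transcript length. The submitters' processing notes name Bowtie 0.12.2 and the builds mm8 and mm9. Not given in the sources used here are the program that made the TPM, the annotation, the use of strand and the rule for shared reads. Read numbers cannot be had from TPM, so depths are unknown and intervals for counting error are left out. The labels do not say that the mice came from separate litters or cages, so p-values measure the spread between these libraries.

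Rows with the same symbol were summed. Genes that reached 1 TPM in 7 or more of the 14 libraries were compared with limma 3.58.1 in R 4.3.3 (log2(TPM + 1), mean trend, robust prior, 2-sided, Benjamini-Hochberg over all genes tested). The added 1 makes fold changes of low genes too small. For 8 ratios between genes, 2-sided exact permutation tests over libraries were run (0.1 TPM added to both genes). The code was tested on simulated data. The named genes are the 30, up to 4 tested genes of smallest p from each list of T-cell genes, the first 2 genes of each list of other cells, and Clec7a; exceptions are marked, and 1 gene the rule takes is not reported here. The 30 genes, the lists and the ratios were chosen with earlier results of these data known. Alternatives varied the pseudocount, the filter, the scaling, the summing of rows, the libraries kept, their weights, a replicate block and a B-cell covariate. Sequences come from GENCODE M21 and RefSeq; coordinates are those of RefSeq, not of the deposited values. Figures were drawn with matplotlib 3.10.9.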

Additional observations from a re-analysis of the deposited data

Results flagged for a closer look

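In each group of 7 libraries, the gap between the lowest or highest value and its neighbour was set against the whole range on the log2(TPM + 1) scale, and compared with Dixon's 95% critical value for 7 values. Of the 60 groups of T-cell gene values, 27 were past it, and all 27 were KO7 lying below the other 6 KO libraries. Chance flags about 1 in 20 groups, but the 30 genes vary together, so that these are not separate events. In WT no T-cell gene value was past it, since WT4 and WT7 were low together. The TPM values of KO7 for the receptor complex were 5.72 for Trac, 7.74 for Trbc1, 9.64 for Trbc2, 1.51 for Cd3d, 1.99 for Cd3e, 6.97 for Cd3g. For coreceptors and adhesion they were 1.34 for Cd4, 1.12 for Cd8a, 1.39 for Cd8b1, 4.58 for Cd2, 0.89 for Cd5, 1.22 for Cd6, 27.84 for Thy1. For signalling genes they were 5.27 for Lck, 1.70 for Zap70, 3.97 for Lat, 1.47 for Skap1. For costimulation and cytokine receptors they were 0.03 for Cd27, 0.34 for Cd28, 0.37 for Icos, 0.18 for Ctla4, 0.47 for Il7r. For transcription factors they were 1.71 for Tcf7, 0.12 for Lef1, 0.18 for Bcl11b, 3.09 for Satb1, 0.03 for Foxp3.

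Of the 16 groups of log2 ratios, 6 were past the same value. KO7 stood apart with -0.24 for Cd8a to Cd4, -0.31 for Trbc1 to Trbc2, -0.21 for Tcf7 to Cd3e and 0.37 for Cd3e to Cd79a. WT9 stood apart with -0.66 for Cd8a to Cd4, and WT4 with -0.93 for Foxp3 to Cd4, a ratio in which Foxp3 was listed at 0 and Cd4 at 0.09 TPM. Without KO7 the KO minus WT difference was 0.31 for Cd8a to Cd4 and -1.15 for Cd3e to Cd79a (exact permutation test, adjusted p = 0.0979 and 0.285). In the same setting it was 0.33 for Trbc1 to Trbc2 and 0.90 for Tcf7 to Cd3e (exact permutation test, adjusted p = 0.0186 and 0.0979). Without WT9 it was 0.10 for Cd8a to Cd4, and without WT4 it was -0.23 for Foxp3 to Cd4 (exact permutation test, adjusted p = 0.554 and 0.331).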

How the results depend on the processing

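Over 30 alternatives the 30 T-cell genes gave 900 fold changes, of which 0 passed the threshold (lowest limma adjusted p 0.271) and 27 turned in sign, all in fits that left libraries out or took the B-cell score as covariate. The counts of T-cell genes called higher or lower were 0 throughout, and with single libraries left out they stayed at 0. The median of the 30 genes lay between 0.37 and 1.44 with single libraries left out and turned to -0.035 without KO7, WT4, WT6 and WT7, an alternative chosen after seeing the data. In that fit the log2 fold change was -0.040 for Trac, -0.030 for Cd3d, -0.36 for Cd3e, -0.074 for Cd247, -0.32 for Cd4, -0.13 for Cd8b1, -0.16 for Cd5, -0.049 for Cd6, -0.026 for Lck, -0.13 for Trat1, -0.15 for Skap1, -0.13 for Cd28, -0.15 for Icos, -0.044 for Ctla4, -0.088 for Il7r, -0.19 for Tcf7 and -0.33 for Foxp3. Without KO7, WT4 and WT7 it was -0.11 for Cd3e and -0.10 for Foxp3. With the B-cell score as covariate it was -0.011 for Cd3d, -0.30 for Cd3e, -0.043 for Cd4, -0.078 for Skap1 and -0.22 for Foxp3, with a median of 0.08 for the 30. With single libraries left out the range was -0.036 to 1.21 for Cd3e and -0.013 to 0.70 for Foxp3.

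Over all genes, 0 were called higher and 3 lower. Those counts were 13 and 6 with quantile normalization, 3 and 6 with median-ratio scaling, 248 and 575 with library weights and 8 and 18 with the B-cell covariate. Without mitochondrially encoded genes 2 were higher. Without a low-value filter and with rows as deposited 1 was lower. With single libraries left out 0 were higher and 0 to 6 lower. In the fits without KO7, WT4 and WT7, with or without WT6, and in the replicate block 0 were lower. The cause was not tested.

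Trbc1 to Trbc2 passed in all 14 fits that left out 1 library (0.33 to 0.43, exact permutation test, highest adjusted p 0.0186), and missed the threshold without KO7, WT4, WT6 and WT7 (0.17). Cd8a to Cd8b1 turned to 0.0053 with 1 TPM added, 0.18 with both genes at 1 TPM or more, 0.16 without KO7, WT4 and WT7 and 0.17 without WT6 too, with -0.097 to 0.069 over single libraries left out. Ctla4 to Cd28 turned to -0.015 with 1 TPM added, to -0.042 with both genes at 1 TPM or more and without KO7, WT4 and WT7, and to -0.083 in the replicate block, with -0.12 to 0.24 over single libraries left out. Tcf7 to Cd3e passed without KO7, WT4 and WT7 (0.35) but not without WT6 too (0.17, adjusted p = 0.124), and lay between 0.46 and 0.90 with single libraries left out. The limit given above for Cd3e as denominator holds for this ratio. Foxp3 to Cd4 passed only without WT8 (adjusted p = 0.042, -0.58), with -0.58 to -0.23 over single libraries left out.

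Replicate numbers 3 to 7 occur in both groups, but the labels do not say that they pair mice. Same-numbered libraries correlated at 0.11, -0.67, 0.60, -0.18 and 0.80, and only numbers 5 and 7 matched best with themselves. Differences between libraries in T-cell, B-cell and adipocyte transcripts enter these values, so they cannot show whether a number marks a litter or batch. Because the labels give no pairing, the number was taken as a name. With it as a replicate block in those 10 libraries 0 genes were called, as in the same 10 without it, and the median of the 30 genes was 1.35 in both. For Trbc1 to Trbc2 the 5 pairs gave 0.47 (exact sign-flip permutation p = 0.0625, the smallest possible, adjusted p = 0.167).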
